A study of Mus musculus with 6 samples.

Results

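The aminoacyl-tRNA synthetases are the enzymes that load each transfer RNA (tRNA) with its amino acid, and their transcripts were followed in osteoblast-like cells grown with or without ascorbic acid (AA). The 36 genes were chosen by name, 20 encoding cytosolic enzymes and 16 encoding mitochondrial enzymes, whose symbols end in 2. Of these, 35 had at least 1 probe set naming that gene alone on the array, among 18193 genes measured in all. The exception was Dars, the cytosolic aspartyl-tRNA synthetase, for which no probe set was named, and Mars is listed on the array as Mars1. The family was put forward with results of this same contrast known, so the counts and differences given for it are a description and support nothing beyond themselves.

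RNA was taken at day 5 from 3 control cultures and 3 AA cultures of MC3T3-E1 subclone 4, a clonal mouse calvarial pre-osteoblast line. Cells of both groups grew in 6-well plates in α-MEM made without AA, with 10% serum, and received fresh medium every second day. The AA cultures were given 50 µg of AA, a dose stated per ml only in the methods. Titles and source names give day 5 for both groups, while a code in the sample descriptions, T0 for control and T1 for AA, is not explained. Each RNA was read on an Affymetrix mouse expression array of its own, on which several probe sets can stand for a gene. The labels do not say whether replicates are separate experiments or wells of 1 experiment, so p-values measure the spread between these samples, which may be technical.

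Charging of tRNA proceeds in a pair of steps, activation of the amino acid with ATP and its transfer to the tRNA, and the synthetases fall into a class I and a class II fold that differ in how the active site is built. Nuclear genes encode a cytosolic set, several members of which are held together in a multisynthetase complex, and a separate set imported into mitochondria, where the few proteins of the mitochondrial genome are made. Cytosolic synthetase genes are among the known targets of ATF4, the transcription factor of the amino acid and stress response, which is also required for osteoblast differentiation.

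A gene is described by its brightest probe set, the one with the highest mean signal over all 6 arrays, a choice that does not use the groups. The 35 genes had 72 probe sets of their own, 35 brightest and 37 others. Signals are printed as deposited, on a linear scale. Differences are AA minus control on the log2 scale after quantile normalization, with a standard error (SE) and an adjusted p from limma taken over all 45037 probe sets, and a gene is said to have risen or fallen only where that p was under 0.05. Signals of different probe sets are not comparable as transcript levels. In cultures measured in bulk, fewer cells of a type and less RNA per cell cannot be told apart.

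The median signal ran from 14.9 to 17.7 on control arrays and from 16.2 to 16.9 on AA arrays. RNA integrity was gauged by the 3′ over 5′ signal of Gapdh, which came to 0.920 for control replicate 3 against 0.791 to 0.809 for the other arrays, so that this array stood apart. It did so too in the actin ratio, at 1.79 against 1.35 to 1.45 elsewhere. Of 9 osteoblast markers 6 were measured, and Alpl and Ibsp were higher in AA, by 1.52 and 1.53 on the log2 scale. The other 4 did not pass, and the 6 had a median difference of 0.20 and a lowest value of -0.02. The summed signal of the 6 was 23338 to 27541 in control and 27875 to 34782 in AA. Among markers of other cell types, the macrophage receptor gene Csf1r rose by 1.81 and the cartilage collagen gene Col2a1 rose by 1.18, while the leukocyte marker Ptprc lay at a signal of 0.328 to 4.52. The other members of both lists did not pass, with differences of -0.02 for Cd68, 0.45 for Ptprc and -0.18 for Lyz2, and of 1.21 for Acan, -0.33 for Sox9 and -1.01 for Matn1. All AA arrays lay below all controls for Sox9, a transcription factor of cartilage, and above them for Acan and Col2a1. Over all 18193 genes such non-overlap was seen below control in 15.3% and above it in 12.6%, while 3.85% fell and 4.07% rose. The summed signals in control and in AA were 370 to 458 and 393 to 463 for 4 macrophage markers, and 322 to 391 and 425 to 526 for 4 chondrocyte markers. They were 10.8 to 16.2 and 14.8 to 15.6 for 4 adipocyte markers, 49.5 to 70.7 and 58.8 to 65.4 for 4 muscle markers, and 20.4 to 31.8 and 18.4 to 30.6 for 4 endothelial markers. The part of these markers in the results that follow was not tested.

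In the cytosol, 3 synthetase genes fell with AA, namely Aars, Lars and Iars, and none rose. These genes encode the enzymes for alanine, leucine and isoleucine. Among mitochondrial enzymes, 1 gene rose, Fars2, which charges phenylalanine, and none fell. The share of all 18193 genes that passed was 3.85% for a fall and 4.07% for a rise. Against these shares, 3 of 19 measured cytosolic genes passed for a fall and 1 of 16 mitochondrial genes passed for a rise. Brighter genes passed more often: with a mean signal of 500 or more, a limit chosen after the values were seen, 9.46% of 3181 genes fell, and 15 of the 19 cytosolic genes lay in that range against 0 of the 16 mitochondrial ones.

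**Figure D1:**
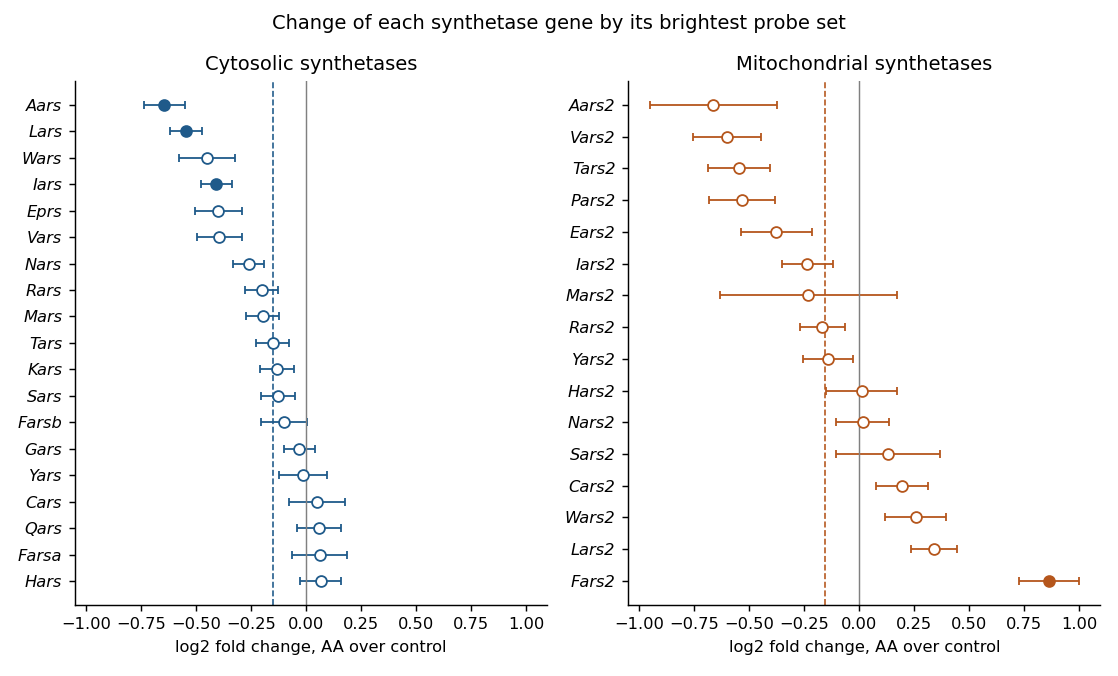
Log2 fold change of AA over control for each synthetase gene by its brightest probe set (horizontal axis), with bars for the SE from limma, cytosolic genes on the left and mitochondrial genes on the right. Filled circles passed an adjusted p of 0.05, open circles did not, and the dashed line is the median of the panel (-0.15 on the left, -0.16 on the right). Cytosolic values end at 0.07, whereas mitochondrial values run on to 0.86 for Fars2 and carry wider bars.

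Lars encodes the leucyl-tRNA synthetase, a member of the multisynthetase complex that is also known as a leucine sensor upstream of mTORC1. Its single probe set gave signals of 1307.8, 1301.8 and 1286.8 in control and 868.7, 937.5 and 874.7 in AA. All 3 AA arrays lay below all 3 control arrays, and the control values were tightly grouped. The means were 1299 ± 10.8 and 894 ± 38.1 (SD, n = 3 each), a log2 difference of -0.55 (SE 0.07; adjusted p from limma 0.00499).

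Aars encodes the alanyl-tRNA synthetase, which acts outside the complex and carries its own editing domain. The brightest probe set gave 1707.5, 1595.4 and 1342.8 in control and 960.5, 1032.4 and 992.6 in AA. The groups did not overlap, and control replicate 3 was the lowest of the controls. The mean was 1549 ± 187 in control and 995 ± 36.05 in AA (SD, n = 3 each), a log2 difference of -0.64 (SE 0.09; adjusted p from limma 0.00695), which is a 1.56-fold lower value in AA. The second probe set of Aars gave 802.8, 652.3 and 325.5 in control and 506.1, 454.1 and 407.4 in AA. Here the groups overlapped, with control replicate 3 the lowest of the 6 arrays, and the log2 difference was -0.26 (SE 0.17; adjusted p from limma 0.498). When the probe sets of Aars were averaged, the difference was -0.45 and did not pass (adjusted p from limma 0.115). A further probe set is assigned to Aars together with its neighbour Exosc6 and was not used for either; its log2 difference was -0.24 (adjusted p from limma 0.302).

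Iars encodes the isoleucyl-tRNA synthetase, another enzyme of the complex. Its signals were 1453.4, 1509.5 and 1596.6 in control and 1112.5, 1143.0 and 1241.2 in AA. The groups did not overlap. The means were 1520 ± 72.1 and 1166 ± 67.3 (SD, n = 3 each), with a log2 difference of -0.41 (SE 0.07; adjusted p from limma 0.0148). The second probe set of Iars, with means of 1370 ± 27.0 in control and 1186 ± 9.29 in AA, had a log2 difference of -0.22 that did not pass (adjusted p from limma 0.132).

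Without control replicate 3, and then with no replicate block, Aars, Lars and Iars still passed, with differences of -0.75, -0.56 and -0.38. Iars did not pass without both arrays of replicate 2 (-0.39, adjusted p 0.114), nor, with no replicate block, without control replicate 2 (adjusted p 0.0621), AA replicate 1 (0.0618) or AA replicate 2 (0.0918), all from limma.

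The remaining 16 cytosolic genes did not pass. Of these, 12 had a log2 difference below 0 and 4 above 0, and 6 were lower at an unadjusted p under 0.05 against 0 higher. Over all genes, passing or not, 12.9% were lower and 10.7% higher at that unadjusted p from limma. The 3 closest to passing encode the enzymes for valine (Vars), for glutamate and proline in a single chain (Eprs, the bifunctional enzyme of the complex) and for asparagine (Nars). Vars gave 683.2, 607.9 and 638.8 in control and 429.4, 523.3 and 487.7 in AA, without overlap (-0.39, SE 0.10; adjusted p from limma 0.0690). Eprs gave 2803.0, 2219.1 and 2715.3 in control and 2007.0, 2298.8 and 1819.9 in AA (-0.40, SE 0.11; adjusted p from limma 0.0760). In Eprs, AA replicate 2 lay above control replicate 2, so the groups overlapped. Nars gave 2452.9, 2129.8 and 2269.8 in control and a narrow 1990.9, 1976.7 and 1977.3 in AA (-0.26, SE 0.07; adjusted p from limma 0.0836). With no replicate block Vars passed (adjusted p from limma 0.0478), and without both arrays of replicate 2 Eprs passed (-0.56, adjusted p from limma 0.0222).

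Wars, for tryptophan, had the most negative value of the 16, -0.45 (adjusted p from limma 0.0936). The mean of its 4 probe sets had a difference of -0.12 (adjusted p from limma 0.711). The brightest probe sets of Wars and of Farsb are of a type whose probes can also bind related sequences. At the other end of the cytosolic set, Gars, Yars, Cars, Qars, Farsa and Hars, for glycine, tyrosine, cysteine, glutamine, phenylalanine (α chain) and histidine, lay between -0.03 and 0.07. The other probe sets of Qars had differences of 0.35, 0.50 and 0.06. None of them passed (adjusted p from limma 0.0720, 0.0912 and 0.970). Gars is one of the genes whose transcripts serve both compartments, and it gave 2591.1, 2418.8 and 2222.5 in control and 2562.5, 2507.3 and 2325.3 in AA, with full overlap. Kars, which also supplies both compartments, had a log2 difference of -0.13 (adjusted p from limma 0.429). The 5 genes left, Rars, Mars, Tars, Sars and Farsb, ranged from -0.20 to -0.10.

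As a set, 15 of 19 cytosolic genes had a difference below 0, with a median of -0.15 and a range of -0.64 to 0.07, and over all 18193 genes the median was -0.02 with 52.4% below 0. In 9 of the 19, all 3 AA arrays lay below all 3 controls, and in 0 they lay above. The same non-overlap below control was seen in 15.3% of all genes and in 23.4% of genes with a mean signal of 500 or more. These counts share the arrays, so the genes are not independent observations of the treatment.

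The cytosolic genes were also set out by the architecture of their enzymes. Of the 7 measured enzymes of the multisynthetase complex, 2 fell (Lars and Iars) and the median difference was -0.20. Of the 12 outside it, 1 fell (Aars) and the median was -0.11. The complex scaffolds Aimp1, Aimp2 and Eef1e1 had differences of 0.08, -0.06 and -0.00, and none of the 3 passed. Of 10 class I enzymes, 2 fell with a median of -0.30, and of 9 class II enzymes 1 fell with a median of -0.13. Eprs, the bifunctional enzyme for glutamate and proline, was counted in class I only, with a difference of -0.40. Over all 18193 genes 3.85% fell, and 9.46% did among genes with a mean signal of 500 or more. The lowest mean signal was 589 among the complex enzymes and 150 among those outside it, so these counts also differ in brightness. The medians rest on few genes, and the differences between the groups of enzymes were not tested.

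Fars2 encodes the mitochondrial phenylalanyl-tRNA synthetase, which works as a single chain, unlike the cytosolic enzyme built from the Farsa and Farsb chains. Its brightest probe set gave 100.1, 90.4 and 86.9 in control and 147.8, 185.3 and 163.4 in AA. All AA arrays lay above all controls. The means were 92.5 ± 6.81 and 166 ± 18.9 (SD, n = 3 each), a log2 difference of 0.86 (SE 0.14; adjusted p from limma 0.0108) or 1.82-fold. The second probe set of Fars2, of a type whose probes can also bind related sequences, gave 12.6, 26.5 and 17.7 in control and 38.7, 42.8 and 40.1 in AA. It too separated the groups, with a log2 difference of 1.13 (SE 0.26; adjusted p from limma 0.0438), although its signals are dim and it did not pass when 50 was added to every signal (0.39, adjusted p from limma 0.0709). Without both arrays of replicate 2, Fars2 kept a difference of 0.74 for the brightest probe set and did not pass (adjusted p from limma 0.0859), and no mitochondrial gene then did. Without control replicate 3 and with no replicate block, the brightest probe set passed at 0.84 (adjusted p from limma 0.0220) and the second did not (1.14, adjusted p 0.0894).

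**Figure D2:**
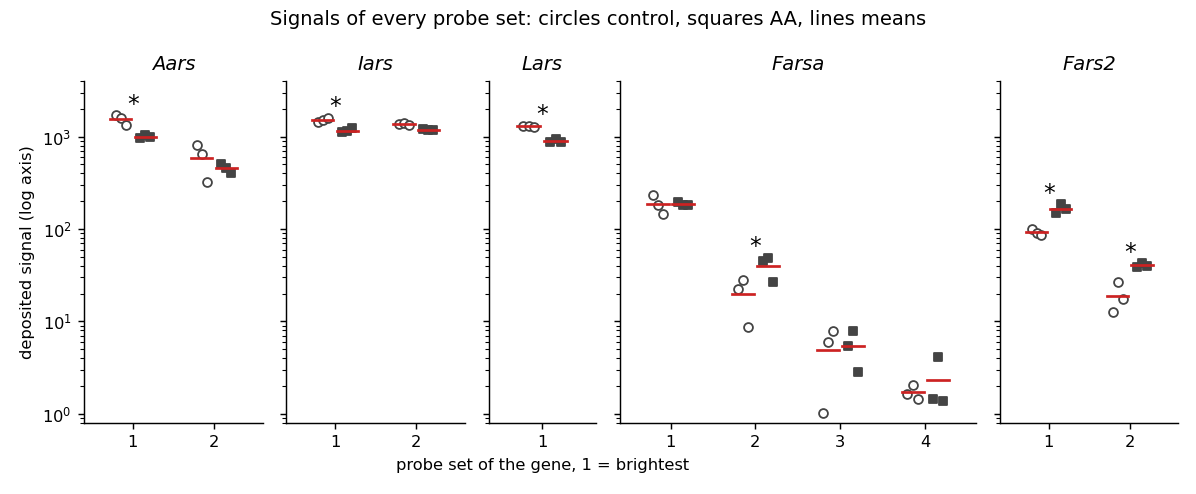
Deposited signal on a log axis for every probe set of Aars, Iars, Lars, Farsa and Fars2, numbered from the brightest, with circles for the 3 control arrays, squares for the 3 AA arrays and lines for their means. An asterisk marks a probe set that passed an adjusted p of 0.05 from limma. Both probe sets of Fars2 lie higher in AA, the second of Aars overlaps between the groups, and of the 4 for Farsa only the dim second one passed.

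The other 15 mitochondrial genes did not pass, 9 with a difference below 0 and 6 above, and at an unadjusted p under 0.05 there were 4 lower and 1 higher among them, beside the 12.9% and 10.7% of all genes. The 3 closest to passing were all lower in value. Vars2, for valine, gave 87.6, 74.9 and 71.2 in control and 52.7, 50.8 and 48.8 in AA (-0.60, SE 0.15; adjusted p from limma 0.0682). Tars2, for threonine, gave 141.7, 113.7 and 149.7 in control and 79.1, 89.1 and 102.6 in AA (-0.55, SE 0.14; adjusted p from limma 0.0690). Pars2, for proline, gave 81.2, 81.9 and 75.8 in control and 51.9, 55.8 and 56.2 in AA (-0.53, SE 0.15; adjusted p from limma 0.0906). In each of these 3 genes the AA arrays lay wholly below the controls. Their differences were close to or beyond that of Lars and larger than that of Iars, but their SEs were 0.14 to 0.15 against 0.07. Aars2, for alanine, had the lowest value of the set, -0.66, from signals of 21.6 to 43.0 in control and 10.5 to 41.5 in AA that overlapped (SE 0.29; adjusted p from limma 0.279).

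On the positive side, Lars2, for leucine, gave 180.7, 169.1 and 164.8 in control and 206.5, 225.4 and 206.5 in AA, without overlap (0.34, SE 0.11, adjusted p from limma 0.124). The mean of its 3 probe sets, of which the others are dim, had the opposite sign (-0.50, adjusted p from limma 0.319). Wars2, for tryptophan, also separated the groups, with a difference of 0.26. Cars2, Sars2, Nars2 and Hars2, for cysteine, serine, asparagine and histidine, lay between 0.01 and 0.19. Ears2, Iars2, Mars2, Rars2 and Yars2, for glutamate, isoleucine, methionine, arginine and tyrosine, lay between -0.38 and -0.14, and Mars2 was too dim to place, with signals of 8.8 to 23.8 over the 6 arrays.

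The mitochondrial median was -0.16, close to the cytosolic one, but the values spread from -0.66 to 0.86 around it. The closeness depended on the processing. With a gene's probe sets averaged the mitochondrial median was -0.25 beside a cytosolic -0.15, and with 50 added to every signal it was -0.09 beside -0.15. In 6 of the 16 genes all AA arrays lay below all controls, and in 3 all lay above, beside 15.3% and 12.6% of all genes. The SEs ran from 0.10 to 0.40 in this set and from 0.07 to 0.13 in the cytosolic set. A difference of a given size therefore passed more readily for a cytosolic gene, and the counts of the compartments are not a comparison of their responses.

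Both sets were also followed array by array. The mean deviation of the cytosolic genes from their own means came to 0.13, 0.11 and 0.05 on the log2 scale in the 3 controls, and to -0.15, -0.05 and -0.10 in the 3 AA cultures. The means of the groups were 0.10 ± 0.04 and -0.10 ± 0.05 (SD, n = 3 each), and every AA array lay below every control. For the mitochondrial genes the values were 0.06, 0.04 and 0.05 in control and -0.18, 0.00 and 0.02 in AA. The low AA mean there, -0.05 ± 0.11 (SD, n = 3) against 0.05 ± 0.01 in control, came mostly from AA replicate 1, in which Aars2 was also at its lowest.

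**Figure D3:**
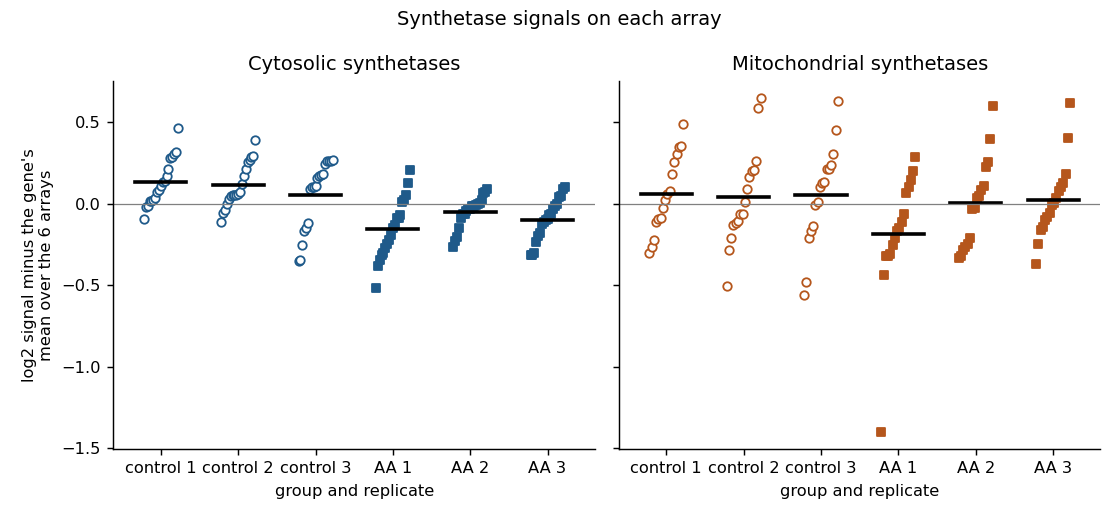
Log2 signal of each synthetase gene on each array, less that gene's mean over the 6 arrays (vertical axis), for cytosolic genes on the left and mitochondrial genes on the right. Circles are control arrays, squares AA arrays, points are genes in order of value and the thick line is their mean. The cytosolic means are 0.05 to 0.13 in control and -0.15 to -0.05 in AA, while the mitochondrial mean is clearly low only on AA array 1, at -0.18.

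Genes of the 2 compartments that charge the same amino acid could be set side by side in 17 pairs, in which Eprs and Fars2 each stand in 2. The mitochondrial gene had the higher difference in 10 pairs and the lower in 7. Both values were below 0 in 9 pairs, among them alanine (-0.64 for Aars, -0.66 for Aars2) and valine (-0.39 for Vars, -0.60 for Vars2). In 5 pairs the mitochondrial value was above 0 and the cytosolic one below. Leucine was one of them, with -0.55 for Lars and 0.34 for the brightest probe set of Lars2 (-0.50 for the mean of its probe sets). Tryptophan was another, with -0.45 for the brightest probe set of Wars (-0.12 for the mean of its probe sets) and 0.26 for Wars2. For phenylalanine, Fars2 stood at 0.86 beside 0.06 for Farsa and -0.10 for Farsb. The differences within pairs were not tested.

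The remaining probe sets of the family gave a check within genes. Of the cytosolic genes, 8 had a single probe set and 11 had more, with 21 others between them, of which 13 had a difference below 0 and 8 above. In 19 of the 21 the sign was that of the brightest probe set of the gene, the exceptions being dim ones of Cars (-0.24 against 0.05) and Wars (0.32 against -0.45). None of the 21 fell and 1 rose, the second probe set of Farsa, with signals of 22.5, 28.2 and 8.6 in control and 45.5, 48.8 and 26.5 in AA. The Farsa groups overlapped there, with a log2 difference of 1.11 (SE 0.25; adjusted p from limma 0.0463), beside 0.06 (adjusted p 0.863) for the brightest. That call was lost with no replicate block (adjusted p from limma 0.202) and when 50 was added to every signal (0.37, adjusted p from limma 0.0701). Without control replicate 3 the Farsa value was 0.64. Of the 16 further mitochondrial probe sets, 12 had a difference below 0 and 4 above, 1 rose (that of Fars2), and 10 had the sign of their gene's brightest. The exceptions belonged to Lars2 (-0.36 and -1.50), Ears2 (0.75), Cars2 (-0.07), Hars2 (-0.20) and Nars2 (-0.58), and none of them passed.

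Promoter sequence is shown because cytosolic synthetase genes are known ATF4 targets, and the array gave a value for each gene found to hold the letters searched. The letters searched were TGATGNAA, the core of the C/EBP-ATF response element that ATF4 binds, on both strands, in RefSeq's windows from 250 bases before to 50 after the transcription start on build GRCm38.p6. A window was given for 12 of the 19 measured cytosolic genes, and 5 of the 12 held the letters, namely Aars, Gars, Iars, Tars and Yars. A window was given for 14 of the 16 mitochondrial genes, 15 windows in all, and 0 held them. Over all 32851 windows 1304 did, or 3.97%. The 250 bases before the start of Aars, at chr8:111033592-111033841 on the plus strand, hold the letters on the opposite strand 112 bases before the start, and capitals mark the match here and in each stretch that follows.
Aars: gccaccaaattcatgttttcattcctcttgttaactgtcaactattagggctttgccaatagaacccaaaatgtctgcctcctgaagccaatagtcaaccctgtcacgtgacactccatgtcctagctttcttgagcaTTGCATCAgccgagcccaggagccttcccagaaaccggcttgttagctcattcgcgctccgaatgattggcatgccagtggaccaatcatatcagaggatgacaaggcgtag
The others are given as stretches of 30 bases, read in the direction of the gene, at chr8:111033840-111033869 (plus strand) for the second match of Aars, chr13:49682126-49682155 (plus) for Iars, chr6:55037960-55037989 (plus) for Gars, chr15:11399655-11399684 (minus) for Tars and chr4:129189895-129189924 (plus) for Yars.
Aars, second match: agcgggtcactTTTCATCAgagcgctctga
Iars: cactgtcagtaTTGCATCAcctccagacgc
Gars: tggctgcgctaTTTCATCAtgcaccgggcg
Tars: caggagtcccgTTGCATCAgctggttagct
Yars: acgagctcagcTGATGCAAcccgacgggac
Of these 5 genes, Aars and Iars fell, with differences of -0.64 and -0.41, and Gars, Tars and Yars did not pass, with -0.03, -0.15 and -0.01. For Lars, which also fell, no window was given and none was searched. A match is a description of the sequence, not of binding.

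Other genes of charging and translation were taken as lists. ATF4 and its known targets, 23 genes all measured, had 12 that fell, 1 that rose and 10 that did not pass, with a median of -0.38. Over all 18193 genes 3.85% fell and 4.07% rose, and 9.46% fell among genes with a mean signal of 500 or more. The list was chosen with earlier results of these data known, so its count is a description. Trib3, a pseudokinase of the stress response, gave 347, 388 and 358 in control and 97.8, 104 and 99.8 in AA, without overlap (-1.83, SE 0.10; adjusted p from limma 0.000174). Ddit3, which encodes the stress factor CHOP, fell by 1.31 on the log2 scale. Slc7a5, which encodes a transporter of large neutral amino acids such as leucine, fell by 1.15, from a mean of 2012 ± 121 to 919 ± 60.8 (SD, n = 3 each). The stress factor gene Atf5 fell by 0.83. The adjusted p from limma was 0.000225 for Ddit3, 0.000378 for Slc7a5 and 0.000982 for Atf5, and for Ddit3 the mean of its probe sets did not pass (-0.50, adjusted p 0.0743). The gene that rose was Vldlr, a lipoprotein receptor, at 0.39 (adjusted p from limma 0.0252, and 0.0689 with no replicate block). Atf4 itself gave 3069, 2693 and 2906 in control and 2724, 2734 and 2486 in AA, with overlap, and did not pass (-0.19; adjusted p from limma 0.193). The 4 falling genes named here were chosen by smallest p among the 12. That their falls were larger than those of Lars, Aars and Iars follows in part from this choice. Sizes were not compared by a test.

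The editing and synthetase-like genes had 8 members measured, with a median of 0.14, and 1 rose, beside 4.07% of all genes. This was Prorsd1, named for a domain of prolyl-tRNA synthetases that removes wrongly loaded amino acids, which gave 405, 436 and 339 in control and 763, 729 and 707 in AA. The groups stood well apart, with a log2 difference of 0.93 (SE 0.09; adjusted p from limma 0.00122). Pstk, Sepsecs, Dtd1, Dtd2, Tarsl2, Aarsd1 and Aimp1 did not pass. In other mitochondrial charging, 4 genes were measured (Gatb, Gatc and Qrsl1, whose products make glutaminyl-tRNA, and Mtfmt, which formylates the initiator), none passed and the median was 0.06.

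The last lists cover tRNA processing and the steps of translation. Of 10 genes of tRNA maturation and export none passed, with a median of 0.01 and values from -0.44 for Elac1, which trims the 3′ end of tRNA precursors, to 0.41 for Gtpbp3, which modifies mitochondrial tRNA, and the tRNA exporter gene Xpot had a difference of -0.21 (adjusted p from limma 0.238). Of 5 genes measured in the list of cytosolic elongation factors none passed and the median was 0.02. That list also counts Eef1e1, which is given above as a scaffold of the multisynthetase complex. Of 8 mitochondrial translation factor genes none passed and the median was 0.10. The corresponding medians were -0.15 for the cytosolic synthetases and -0.38 for the ATF4 list, with no test between lists.

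**Figure D4:**
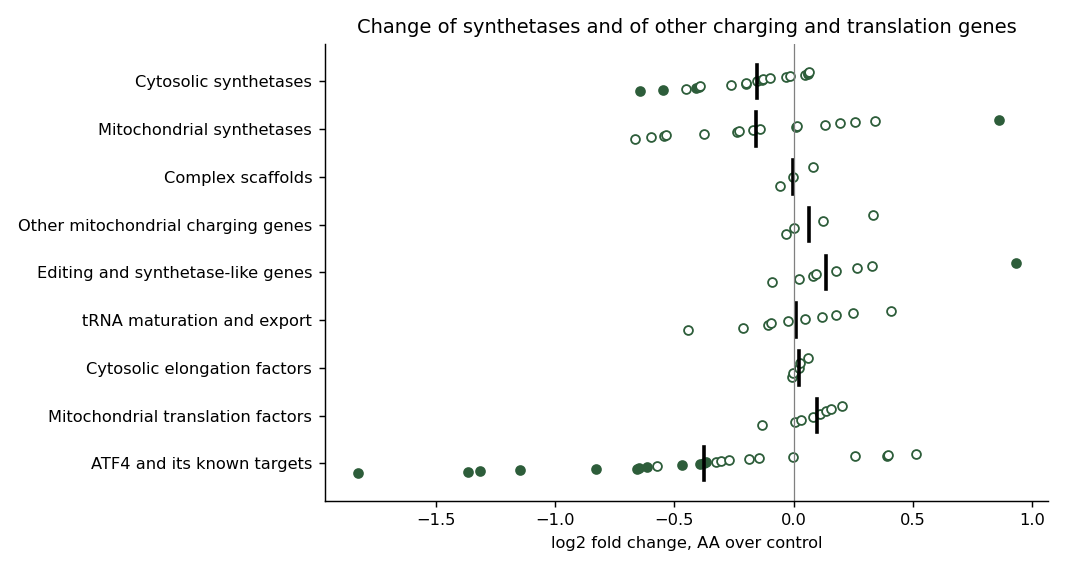
Log2 fold change of AA over control (horizontal axis) for the genes of the synthetase sets and of the lists of charging, tRNA, translation and ATF4 genes, 1 circle per gene by its brightest probe set. Filled circles passed an adjusted p of 0.05 from limma, and the thick line is the list's median. The elongation and translation factor lists lie close to 0, while the ATF4 list runs from -1.83 to 0.51. In that list 12 of 23 genes fell, beside 3.85% of all genes.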

How the data were processed

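Affymetrix mouse arrays, 6 in all, carried the RNA of 3 control and 3 AA cultures of MC3T3-E1 cells at day 5. The authors deposited linear intensity values. MAS5 is the program listed in the submitters' processing notes, without a version, and the trimmed mean of each array, less 2% at either end, was 150. Quantile normalization and GC-RMA, which the methods name, had not been applied to these values. Detection calls were not given, so absence was not called for any probe set.

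Of 45101 probe sets, 64 for array controls were removed, and the remaining 45037 were put on the log2 scale and quantile-normalized between arrays. The limma 3.58.1 package in R 4.3.3 was fitted with condition and with the replicate number as a block, following the paired tests of the methods, and with a variance prior that follows mean signal. Each probe set had 2 residual degrees of freedom plus 6.18 from the prior. Benjamini-Hochberg adjustment was over all probe sets. Alone, an exact permutation test of 3 against 3 could not go below p = 0.1.

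GEO's platform annotation, which can be old, gives a single gene (1) for 34945 probe sets, more than that for 932 and no gene for 9160. All 35 measured synthetases matched RefSeq's table by Entrez identifier, which changed 0 symbols. The genome build of the array annotation is not given in the sources used here, and coordinates are those of RefSeq on GRCm38.p6.

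The synthetases, the lists and the markers were chosen with earlier results of these data known. Array values are printed for each synthetase that passed and for the 3 closest to passing in each compartment; other probe sets are named where sign or call differs from the brightest, and of each list up to 4 genes per direction that passed with the smallest p. Further genes printed (Aars2, Lars2, Wars, Gars, Atf4, Xpot, Elac1, Gtpbp3 and marker genes) and the other probe sets of Qars were chosen after their values were seen. Alternatives were no replicate block, signals as deposited, median centring, 50 added to each signal, probe sets above the median signal, a prior without the trend, the methods' paired t-test, leaving out replicates or single arrays, and the mean or any of a gene's probe sets. Choosing the brightest probe set by mean log2 signal was added after the data were seen.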

Additional observations from a re-analysis of the deposited data

How the results depend on the processing

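The 4 genes that passed (Lars, Aars, Iars, Fars2) and both medians had the same sign under each alternative run. Signs of genes that did not pass turned in up to 5 of 35: with probe sets averaged per gene Lars2 went to -0.50 and Cars, Hars2 and Nars2 also turned below 0, and with median centring Cars, Farsa, Qars, Hars2 and Nars2 did. With no replicate block 2128 probe sets passed against 2343 with it, and 4 cytosolic genes fell (Vars added), while 1 mitochondrial gene rose and 0 fell. Deviations of same-numbered arrays from their group means correlated at 0.0165, 0.00369 and 0.00994. These values come from 3 arrays per group and all probe sets, dim ones included, so they cannot decide whether the numbers pair the arrays. Adding 50 to each signal left 1443 probe sets. A prior without the trend and the methods' paired t-test, after Benjamini-Hochberg, each left 0 of all probe sets, 0 cytosolic and 0 mitochondrial genes, although at an unadjusted p under 0.05 they gave 5203 and 5439 probe sets (2587 and 2612 higher, 2616 and 2827 lower). At an unadjusted p under 0.01 the paired test gave 2 cytosolic genes lower (Iars, Lars), 2 mitochondrial genes lower (Pars2, Vars2) and 0 higher. Mitochondrial genes that fell numbered 1 with signals as deposited (Tars2), 2 with median centring (Tars2, Vars2) and 3 among probe sets above the median signal (Pars2, Tars2, Vars2), where 6 cytosolic genes fell (Eprs, Nars and Vars added). Median centring moved the cytosolic median to -0.20 and the mitochondrial one to -0.22, and Iars then had an adjusted p of 0.0710 from limma. Counting any probe set of a gene, 1 cytosolic gene rose (Farsa). Choosing the brightest probe set by mean log2 signal picked the same one for all 35 genes.

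Without both arrays of a replicate, 966 (replicate 2) to 2163 probe sets passed and the cytosolic median ran from -0.20 to -0.15. With no replicate block, 867 passed without control replicate 2, 1303 without control replicate 3, and 956, 719 and 1180 without AA replicates 1, 2 and 3. Over all of these fits 2 to 3 cytosolic genes fell and 0 rose, and 0 mitochondrial genes fell and 0 to 1 rose. The median ran from -0.20 to -0.12 for cytosolic and from -0.21 to -0.09 for mitochondrial genes. The adjusted p from limma or the paired test ranged over all alternatives from 0.00333 to 0.399 for Lars, 0.00114 to 0.401 for Aars, 0.0082 to 0.430 for Iars and 0.00516 to 0.389 for Fars2, and was under 0.05 in 15, 14, 10 and 14 of 17. The cause of these shifts was not tested.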
